A study of Homo sapiens with 30 samples.

Results

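Betacellulin (BTC) was added to LX2 cells that had been loaded with oleic acid, and the 5 libraries of these cells were compared with the 5 libraries of oleic acid cells that received the BTC vehicle. Members were chosen by their labels and paired by experiment, and they are 10 of the 30 samples of the series. LX2 is an established human cell line with the features of activated hepatic stellate cells, which make most of the collagen of a scarred liver. The series crossed 3 pretreatments (oleic acid, docosahexaenoic acid, abbreviated DHA, or neither) with BTC or its vehicle, in 5 experiments that each hold 1 culture of every group.

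Both groups, written OLA+Veh and OLA+BTC, were grown with oleic acid at 50 µM on 20 µM albumin for 2 cycles of 48 hours. The labels then give 1% fetal calf serum and, in OLA+BTC, recombinant human BTC at 20 ng/ml for 72 hours. The labels disagree on the last fatty acid exposure: the treatment text gives 96 hours with the medium removed before BTC, and the group label gives oleic acid and BTC together for 72 hours. Whether oleic acid was present during BTC is therefore not settled here. The comparison groups were Veh+Veh and Veh+BTC, without fatty acid, and DHA+Veh and DHA+BTC, with DHA at 50 µM. All 30 cultures come from 1 cell line. Nothing in the labels says that the 5 experiments were separate passages or thaws. The gene p-values of the main test set a difference against the spread left between cultures after group and experiment, pooled over all 30. That spread may therefore be partly technical.

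BTC is a growth factor of the epidermal growth factor family. It binds EGFR and ERBB4, and receptor pairing can draw in ERBB2 and ERBB3. Active receptors switch on the RAS and ERK cascade, which induces immediate early factors such as FOS and EGR1 and feedback inhibitors such as DUSP6 and the Sprouty proteins, and which drives cyclin D1 and entry into the cell cycle. Activated stellate cells make fibrillar collagens, the matrix protease inhibitor TIMP1 and a contractile apparatus marked by ACTA2, and respond to fatty acids with lipid droplet and PPAR target genes. Oleic acid is a monounsaturated fatty acid that cells store readily as triglyceride.

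No gene passed the test for BTC after oleic acid. Of 15137 genes tested with limma on log2(CPM + 1), where CPM is the read count scaled to a library total of 1000000, 0 (0%) had an adjusted p under 0.05. The smallest adjusted p was 0.956, for the vault RNA VTRNA1-1. At an unadjusted p under 0.05 there were 299 genes (1.98%), of which 139 (0.918%) were higher with BTC and 160 (1.06%) lower. edgeR's quasi-likelihood test on the recovered reads also called 0, with 332 at an unadjusted p under 0.05. DESeq2 called 1 (0.00661%), VTRNA1-1, with 460 at an unadjusted p under 0.05.

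The fit also bounds how large a response could be. The median difference over all genes tested was -0.01, with quartiles of -0.17 and 0.15, and 7304 genes were higher with BTC and 7833 lower. In either direction, 44 genes differed by more than 1 unit on the log2(CPM + 1) scale. For low genes 1 unit on this scale is more than a 2-fold change in CPM, so the bound is looser for them. The 95% interval lay within 1 unit of 0 for 11021 of the 15137 genes (72.8%), and for 8374 of the 10080 genes (83.1%) with a mean of 5 CPM or more. The typical half-width of the interval was 0.64 log2 units over all genes and 0.55 over the latter. Differences well inside these intervals were not detectable. In the same fit, DHA+Veh against Veh+Veh gave 233 called genes (1.54%), with ANGPTL4 at 4.90 log2 units above vehicle (adjusted p 8.21e-08, limma). Oleic acid itself, OLA+Veh against Veh+Veh, gave 0 called genes with 468 at an unadjusted p under 0.05. PLIN2 was 136 ± 35.8 CPM in OLA+Veh and 124 ± 26.5 CPM in Veh+Veh (SD, n = 5), and ANGPTL4 was 15.2 ± 6.23 and 6.28 ± 4.83 CPM.

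**Figure D1:**
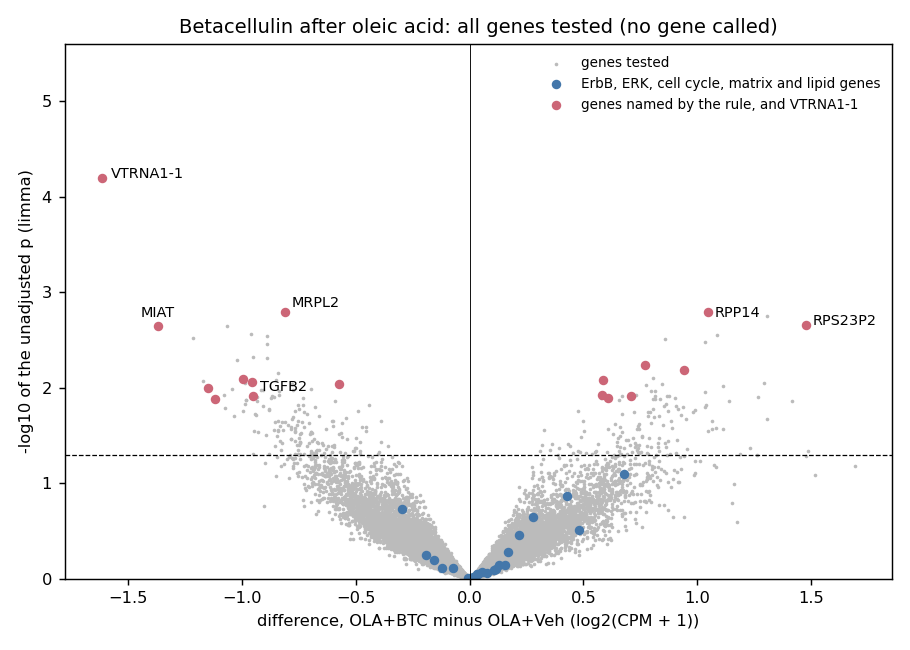
For each of the 15137 genes tested, OLA+BTC minus OLA+Veh on the log2(CPM + 1) scale (x axis) and -log10 of the unadjusted limma p-value (y axis). The dashed line marks the unadjusted threshold of 0.05. VTRNA1-1 has the smallest p. The blue points, a fixed set of ErbB, ERK, cell cycle, matrix and lipid genes other than TGFB2, lie under the dashed line. TGFB2 is in that set but lies above the line and is drawn red with the genes named by rule. EPHA2 is not in the set.

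Experiment, not BTC, separated the 10 oleic acid libraries. Of the variance of log2(CPM + 1) among them, 75.3% lay between experiments, 4.48% between BTC and vehicle, and 20.2% was left. Library totals ran from 3100482 to 5338852 reads in these 10 libraries, so that 3 reads, the most a count of 0 allows, correspond to 0.562 to 0.968 CPM. Such limits cover counting error only, since reads without molecular identifiers are not independent molecules. Total reads, the share of the 10 most abundant genes, the mitochondrial share, the ribosomal protein share and the number of genes detected did not differ between OLA+BTC and OLA+Veh beyond the spread of the pairs. The smallest p among the 5 measures was 0.375 (exact two-sided sign-flip permutation test, adjusted p 0.938), and 5 pairs cannot give a p below 0.0625.

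The cells carried the mesenchymal markers of their label. Summed over 12 stellate and mesenchymal markers, levels were 1017 to 2849 CPM in OLA+Veh and 1244 to 3296 CPM in OLA+BTC. The muscle filament gene DES, a member of this list, was at or near 0, as was LRAT, the enzyme that stores vitamin A as retinyl ester. Of the 29 libraries other than OLA+BTC 2, 26 had no read of DES and 28 none of LRAT. Of 19 stellate quiescence and retinoid genes, 9 were abundant enough to test, and 1 was at 0 in all 10 oleic acid libraries. The 12 hepatocyte markers summed to 4.75 to 19.7 CPM in OLA+Veh and 5.03 to 18.5 CPM in OLA+BTC, with 4 of them at 0 in all 10 libraries. Epithelial markers summed to 178 to 642 and 169 to 734 CPM, and endothelial markers to 32.8 to 51.7 and 35.6 to 76.6 CPM. Leukocyte markers summed to 20.6 to 57.9 CPM in OLA+Veh and 26.2 to 141 CPM in OLA+BTC.

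The highest of these leukocyte values belongs to OLA+BTC 2, the BTC culture of experiment 2. It stood apart from the other 29 libraries in a mixed set of genes, some of them genes of blood cells. By a rule set after the values were seen (20 CPM or more and at least 4 times the next highest library), it had 21 genes to itself, Veh+BTC 3 had 4, and the other 28 libraries had none. Besides globin, immunoglobulin and leukocyte genes, the 21 held S100A4 at 290, SPP1 at 179, BHLHE22 at 129 and A2M at 72.6 CPM. HBD, a beta-type globin of red blood cells, was at 1594 CPM against 22.3 to 152 CPM in the other 29 libraries. HBB, the adult beta globin, was below HBD, at 263 CPM against 1.58 to 16.3 CPM. The immunoglobulin genes IGKC and IGHM were at 157 and 34.9 CPM, against at most 34.0 and 5.79 CPM elsewhere. ITGB2, the beta chain of leukocyte integrins, was at 1533 CPM against 25.7 to 424 CPM. PTPRC, the pan-leukocyte phosphatase CD45, was at 27.8 CPM against at most 3.50 CPM, and CSF1R, the receptor that defines macrophages, at 28.4 CPM against at most 9.64 CPM. TYROBP at 38.0 CPM (others at most 20.1) and ITGAM at 10.8 CPM (others at most 2.73) were also above the other libraries. So were LYZ at 6.18 CPM (others at most 1.71) and LST1 at 7.11 CPM (others at most 2.33). The monocyte and macrophage genes CD68, at 10.8 CPM (others 0.937 to 45.0), and CD14, at 10.2 CPM (others 2.60 to 39.4), were inside the range of the other libraries. Genes of other cell types were also above it: KRT19, an epithelial keratin, was at 11.1 CPM against at most 3.55 CPM, and PECAM1, an endothelial and leukocyte adhesion molecule, at 42.3 CPM against at most 10.6 CPM. CD3E of T cells and MS4A1 of B cells had 0 reads in all 30 libraries. The stellate genes of OLA+BTC 2 were within the range of the others, with VIM at 573, PDGFRB at 66.7 and COL1A2 at 50.1 CPM. Results whose unadjusted p is under 0.05 with OLA+BTC 2 and not without it are given both ways, and its origin was not tested.

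**Figure D2:**
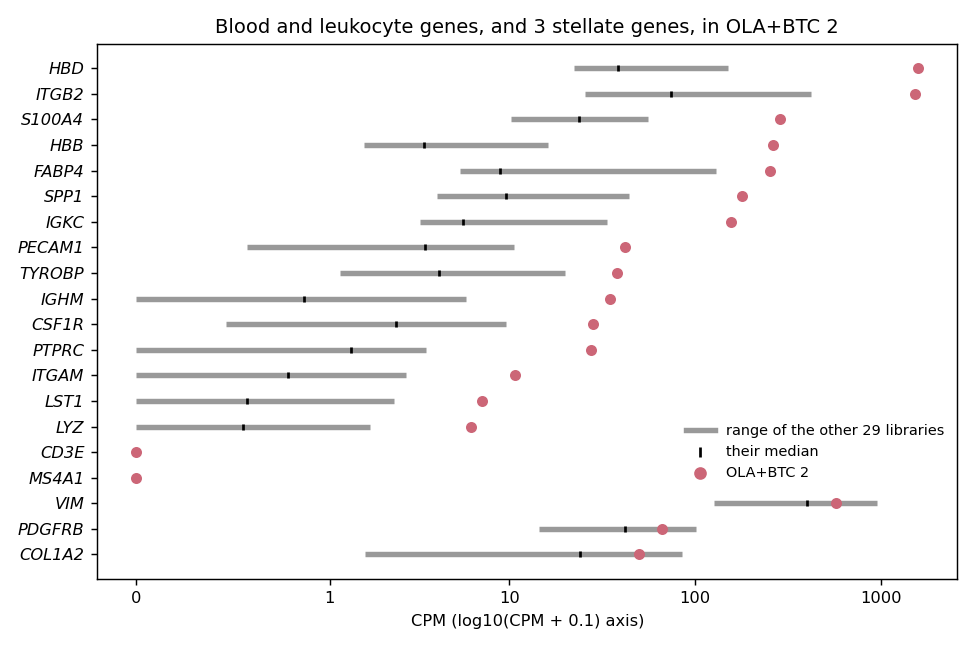
CPM on a log10(CPM + 0.1) axis of blood, leukocyte and related genes and of 3 stellate genes in OLA+BTC 2 (red points), with the range (grey bar) and median (tick) of the other 29 libraries. HBD, HBB, IGKC and PTPRC of OLA+BTC 2 lie above the whole range, CD3E and MS4A1 are at 0 everywhere, and VIM, PDGFRB and COL1A2 lie inside it.

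A second pattern ran through all libraries and differed in direction between the oleic acid pairs. Within each experiment, a set of genes differed together from library to library, in groups with and without BTC. The first principal component of the values centred on each experiment, over 8278 genes with a mean of 10 CPM or more, held 28.5% of the remaining variance. The values were not centred on pretreatment, so differences between pretreatments were not removed from it. ANGPTL4, the gene with the smallest p in DHA+Veh against Veh+Veh, and MMP1 were at ranks 2 and 6 of its other end. The top 10 genes of the component were CD9 (a tetraspanin), LLGL1, CCN1 (a matrix protein and YAP target), TDRD7, THOC3, RCC2, C5orf15, DFFB, HSPA8 (the constitutive heat shock chaperone) and PLAU (the urokinase protease). They were found from these values, so no test is given for them as a set.

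RCC2, a regulator of mitosis, shows the pattern. Its level in OLA+Veh 1 to 5 was 269.8, 156, 102, 72.6 and 368 CPM, and in OLA+BTC 1 to 5 it was 199.5, 508, 487, 450.4 and 20.3 CPM. BTC cultures were thus far above their pairs in experiments 2, 3 and 4, slightly below in experiment 1 and far below in experiment 5. HSPA8 went from 36.5 to 83.7, from 18.6 to 97.4 and from 10.4 to 100.1 CPM in experiments 2 to 4, and from 42.3 to 3.65 CPM in experiment 5. CD9 was 6.69 CPM in OLA+BTC 5 against 90.6 CPM in OLA+Veh 5, and 509.8 against 18.4 CPM in experiment 4. GAPDH, the glycolytic enzyme, was among the 10 genes at the other end: it was lower with BTC in experiments 1 to 4 (3151 against 5847 CPM in experiment 4) and higher in experiment 5 (6669 against 3754 CPM). None of the 10 top genes passed the test (adjusted p above 0.99, limma), and their average differences had wide errors. They ran from -0.28 ± 0.73 (SE) log2 units for CCN1 to 0.94 ± 0.76 for DFFB and 1.17 ± 1.01 for CD9, with RCC2 at 0.40 ± 0.76.

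The same genes set apart pairs outside the oleic acid groups. On the score of this component, BTC minus vehicle was -4.42, 18.9, 25.6, 43.9 and -53.1 in oleic acid experiments 1 to 5, -87.8, 28.4, -29.5, 6.90 and -67.0 without fatty acid, and 19.3, -17.6, -21.4, -17.8 and -6.72 after DHA. The loadings were associated in part with base composition: across genes, they correlated with the GC content of the last 400 bases of the transcript at a Spearman rho of -0.42 (8278 genes, which are not independent replicates). The read-weighted GC content of these ends averaged 45.4% ± 1.70 in OLA+BTC and 45.6% ± 1.98 in OLA+Veh (SD, n = 5), and BTC minus vehicle was 0.118, -0.22, -0.677, -0.948 and 0.835 percentage points in experiments 1 to 5. Without fatty acid this GC difference was 2.26, -0.578, 0.0785, -0.188 and 1.43, and after DHA it was -0.534, 0.293, 0.66, 0.189 and -0.306. The score and the GC difference had the same sign after DHA in experiment 5, and the GC difference was small without fatty acid in experiment 3. The part that base composition or library preparation has in this pattern was not tested. With the GC content of each library as an added covariate, limma still called 0 genes, with 352 at an unadjusted p under 0.05.

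**Figure D3:**
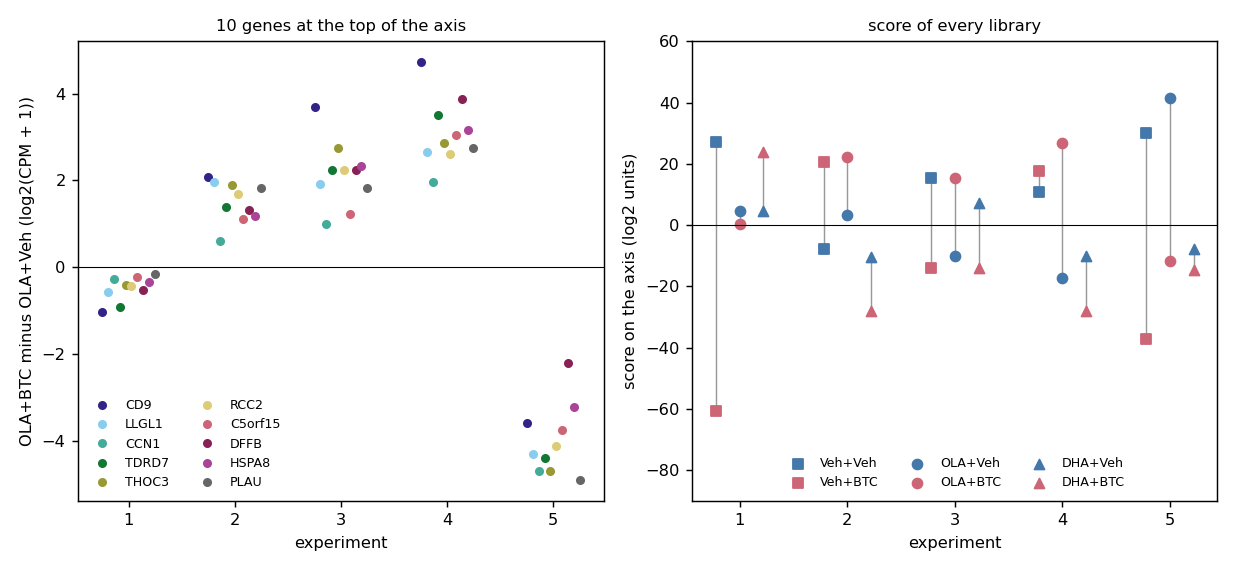
Left: OLA+BTC minus OLA+Veh on the log2(CPM + 1) scale in each experiment for the 10 genes at the top of the shared component. Right: score of every library on that component, with a grey line joining BTC and vehicle of 1 pretreatment. The 10 genes lie above 0 in experiments 2 to 4 and below 0 in experiments 1 and 5, and the libraries of all pretreatments spread along the same axis.

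The BTC responses of single experiments differed in direction. Over the 10080 genes with a mean of 5 CPM or more, the differences of experiments 2, 3 and 4 correlated with each other (Pearson r 0.32 to 0.49, across genes) and ran against those of experiment 5 (r -0.31 to -0.46). Experiment 1 was near 0 with the others (r -0.09 to 0.09) and had the fewest large differences, with 44 genes higher and 107 lower by more than 1 log2 unit. Experiment 5 had 196 higher and 1293 lower. Over all genes tested, 337 (2.23%) were higher with BTC in 5 of 5 experiments and 629 (4.16%) were lower in 5 of 5.

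The receptors that BTC can engage were measured first. EGFR was at 59.2, 48.3, 15.3, 11.8 and 18.1 CPM in OLA+Veh 1 to 5 and at 42.5, 49.4, 14.8, 12.9 and 17.8 CPM in OLA+BTC 1 to 5. The groups overlapped and the experiments set the level, with a difference of -0.08 and a 95% interval of -0.59 to 0.44. ERBB2, the receptor partner without a ligand of its own, was 28.7 to 39.3 CPM in OLA+Veh and 35.5 to 46.0 CPM in OLA+BTC and was higher with BTC in 5 of 5 experiments, at 0.22 ± 0.22 (SE), an amount that did not pass the test. ERBB3 was at 0.252 to 3.09 CPM over the 10 libraries. ERBB4 had 0 reads in all 10, which allows at most 0.562 to 0.968 CPM.

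Among the ErbB ligands, 4 of 11 were abundant enough to test, and none passed. BTC's own transcript had a read in 2 of the 10 libraries, at 0.309 and 0.323 CPM. HBEGF, a membrane-bound ligand shed by proteases, was 13.2 to 40.2 CPM in OLA+Veh and 16.9 to 34.8 CPM in OLA+BTC (0.17, interval -0.37 to 0.70). AREG, amphiregulin, was at 1.07, 0, 0.206, 0.798 and 0.323 CPM in OLA+Veh and at 0.252, 4.02, 2.06, 2.26 and 0 CPM in OLA+BTC. Its BTC values were higher in experiments 2, 3 and 4 and lower in 1 and 5 (0.68 ± 0.38 SE, unadjusted p 0.0802, adjusted p above 0.99, limma), and the difference was 0.44 without OLA+BTC 2. Of 14 adaptors and turnover genes tested, 3 were higher and 11 lower with BTC, with a median of -0.11 against -0.01 over all genes. CBLB, a ubiquitin ligase for activated receptors, had the smallest p of them (0.62, unadjusted p 0.102).

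ERK feedback and ERK-induced genes did not move as a group. Of 25 tested, 0 passed, 15 were higher and 10 lower, and the median was 0.10. DUSP6, the ERK phosphatase that ERK itself induces, was at 352, 133, 43.1, 80.4 and 138 CPM in OLA+Veh 1 to 5 and at 374, 229, 78.5, 202 and 28.0 CPM in OLA+BTC 1 to 5. It was higher with BTC in 4 of 5 experiments and lower in experiment 5, and averaged 0.15 (interval -0.71 to 1.02), with -0.03 without OLA+BTC 2 and 0.60 without OLA+BTC 5. ETV5, an ERK-induced ETS factor, was close in both groups at 74.1 to 171 and 78.3 to 169 CPM (-0.01, interval -0.53 to 0.52). SPRY4, a Sprouty inhibitor, was at 0.645 to 5.28 CPM over the 10 libraries. EPHA2, an ephrin receptor kinase, was the only member of this list with an unadjusted p under 0.05. It was 9.97 to 14.2 CPM in OLA+Veh and 8.05, 59.9, 139, 67.2 and 8.92 CPM in OLA+BTC 1 to 5. EPHA2 was thus high with BTC in experiments 2, 3 and 4, the 3 pairs in which the shared component was also higher with BTC. Its difference was 1.48 ± 0.71 SE (unadjusted p 0.0459), and 1.14 (unadjusted p 0.140) without OLA+BTC 2.

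Of 21 AP-1 and immediate early factors tested, 0 passed, 12 were higher and 9 lower (median 0.02). FOS, the inducible AP-1 subunit, was low throughout, at 2.41, 1.18, 0.825, 0.598 and 0.645 CPM in OLA+Veh and 2.77, 6.49, 2.62, 1.35 and 2.03 CPM in OLA+BTC. It was higher with BTC in 5 of 5 experiments (0.87 ± 0.35 SE, unadjusted p 0.0175), and 0.68 (unadjusted p 0.072) without OLA+BTC 2. KLF4 was also higher in 5 of 5 (0.79, unadjusted p 0.0841), and the orphan receptor NR4A1 in 4 of 5 (0.78, unadjusted p 0.0481), at 0.63 (unadjusted p 0.129) without OLA+BTC 2. FOS and NR4A1 rest on few reads: most of their values are below 3 CPM. The more abundant JUN and EGR1 differed by 0.07 and -0.04.

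**Figure D4:**
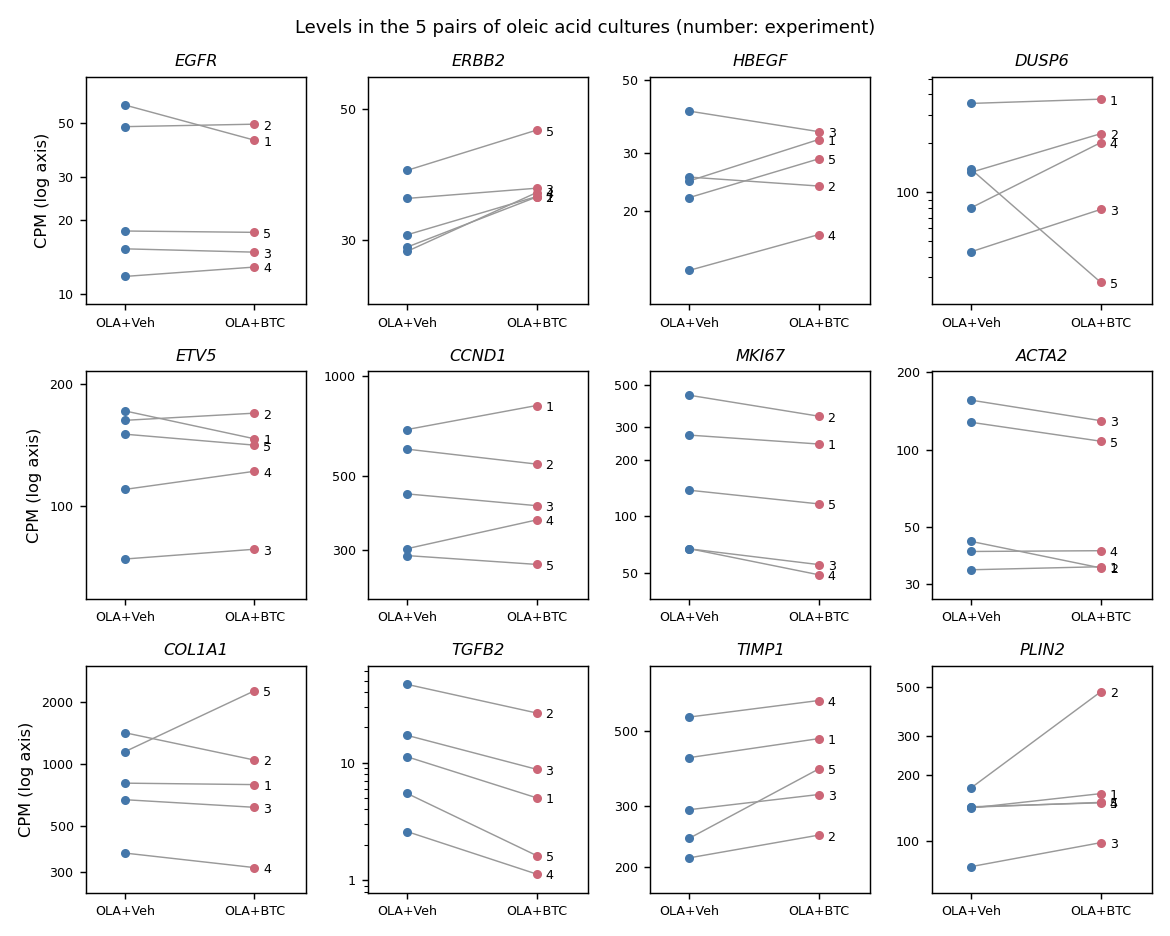
CPM on log axes of 12 genes in OLA+Veh (blue) and OLA+BTC (red), with a line joining the 2 cultures of 1 experiment and the experiment number at the right. ERBB2, TIMP1 and PLIN2 were higher and MKI67 and TGFB2 lower with BTC in every pair, and for each of them the groups overlapped.

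Cell cycle genes showed little difference. MYC, the growth regulator, was at 1.80 to 8.71 CPM in OLA+Veh and 1.01 to 9.74 CPM in OLA+BTC (0.07, interval -0.84 to 0.98), with a difference of 0.47 without OLA+BTC 5 and -0.04 without OLA+BTC 2. CCND1, cyclin D1, was at 288 to 691 CPM in OLA+Veh and 271 to 816 CPM in OLA+BTC (0.03, interval -0.45 to 0.52). MKI67, the proliferation antigen Ki-67, was at 271, 443, 67.3, 67.4 and 138 CPM in OLA+Veh 1 to 5 and at 243, 342, 55.4, 48.9 and 117 CPM in OLA+BTC 1 to 5. It was lower with BTC in 5 of 5 experiments, by a difference of -0.30 that did not pass the test (interval -0.75 to 0.15). Of 30 replication genes 16 were higher and 14 lower (median 0.03), and of 30 mitosis genes 11 were higher and 19 lower (median -0.06). The interval lay within 1 log2 unit of 0 for 29 of the 30 replication genes and 24 of the 30 mitosis genes. TYMS, which makes thymidylate, was higher in 5 of 5 (0.28, unadjusted p 0.0822), and E2F1 and CLSPN were lower in 5 of 5 (-0.34 and -0.44). Of 20 MYC targets and ribosome biogenesis genes, 2 were higher and 18 lower with BTC, with a median of -0.13, and 0 passed. Their largest difference was that of UTP20 (-0.55, unadjusted p 0.216).

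Collagen and matrix genes were likewise without a called member. COL1A1, a chain of type I collagen, was at 807, 1415, 671, 370.5 and 1146 CPM in OLA+Veh 1 to 5 and at 794, 1044, 617, 315.1 and 2257 CPM in OLA+BTC 1 to 5. It was lower with BTC in 4 experiments and higher in experiment 5, and averaged 0.03 (interval -0.43 to 0.49). COL1A2 and COL3A1 differed by 0.11 and 0.01. Of 33 collagens and matrix genes tested, 12 were higher and 21 lower (median -0.09), and of 19 collagen processing genes 13 were higher and 6 lower (median 0.14). LAMA4, a laminin chain, was higher in 5 of 5 (0.32), and COL11A1 lower in 5 of 5 (-0.72, unadjusted p 0.0651), at levels of at most 4.84 CPM. TIMP1, which blocks matrix metalloproteinases, was at 212 to 548 CPM in OLA+Veh and 247 to 612 CPM in OLA+BTC and was higher in 5 of 5 (0.28, interval -0.18 to 0.73).

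TGFB2, a ligand of the main fibrogenic pathway, had the smallest p of the TGF-beta list. Its levels were 11.3, 46.5, 17.1, 2.59 and 5.48 CPM in OLA+Veh 1 to 5 and 5.03, 26.6, 8.80, 1.13 and 1.62 CPM in OLA+BTC 1 to 5. Each BTC culture was below its pair, although the groups overlapped because experiment 2 was high in both. The difference was -0.95 ± 0.36 SE (unadjusted p 0.0123, adjusted p above 0.99, limma), and it was between -1.05 and -0.81 in every fit that left out 1 library or 1 experiment. After the other pretreatments TGFB2 differed by 0.66 without fatty acid (unadjusted p 0.0736) and -0.54 after DHA (unadjusted p 0.139). The interaction with oleic acid was -1.61 (unadjusted p 0.00327, adjusted p 0.584, limma), so the responses were not shown to differ. TGFB1 differed by -0.19, and of the 24 genes of the list 10 were higher and 14 lower (median -0.06).

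The contractile list had more genes lower than higher with BTC, without a called gene. Of 17 tested, 2 were higher and 15 lower, against 7304 higher and 7833 lower over all genes, and the median was -0.16 against -0.01 over all genes. TAGLN, MYL9, TPM2 and PDLIM7, which encode parts of the actin and myosin apparatus, were lower in 5 of 5 experiments, by -0.24, -0.48, -0.16 and -0.35. Over all genes tested, 629 (4.16%) were lower in 5 of 5. MYL9, a myosin light chain, was at 516, 855, 2209, 1011 and 1088 CPM in OLA+Veh and 419, 637, 1395, 501 and 1076 CPM in OLA+BTC. ACTA2, smooth muscle actin, was at 34.0 to 156 CPM in OLA+Veh and 34.6 to 130 CPM in OLA+BTC (-0.16, interval -0.84 to 0.52). In experiments 1 to 5 the median of the list was -0.06, -0.28, -0.26, -0.24 and -0.01. The median over all genes tested was -0.06, 0.03, 0, 0.04 and -0.12. The list thus lay well below all genes in experiments 2 to 4 and not in 1 and 5. Of 15 YAP and TEAD targets, 5 were higher and 10 lower (median -0.10), and the pair CCN2 and ANKRD1 differed by -0.05 and -0.58.

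PLIN2, the coat protein of lipid droplets, was at 141, 175, 76.8, 143 and 143 CPM in OLA+Veh 1 to 5 and at 164, 475, 98.5, 149 and 150 CPM in OLA+BTC 1 to 5. It was higher in 5 of 5 experiments, with 1 large gap in experiment 2. The difference was 0.43 (interval -0.14 to 1.00) and 0.09 without OLA+BTC 2. The fatty acid transporter CD36 was at 64.6 CPM in OLA+BTC 2 against 3.24 CPM in its pair, and the fatty acid binding protein FABP4 at 255 against 16.8 CPM, while in the other 4 pairs neither gene was above 16.3 CPM. SCD, the stearoyl-CoA desaturase that makes oleic acid, was at 567 to 911 CPM in OLA+Veh and 414 to 986 CPM in OLA+BTC (0.05, interval -0.51 to 0.62). Of 21 synthesis and desaturation genes 12 were higher and 9 lower (median 0.06), of 21 oxidation and PPAR target genes 12 and 9 (median 0.03), of 15 lipid droplet genes 6 and 9 (median -0.06), and of 25 cholesterol genes 16 and 9 (median 0.04). None of them passed. Among PPAR targets, ANGPTL4 differed by 0.12, and by -0.25 without OLA+BTC 2.

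Of 33 cytokine and NF-kB genes tested, 0 passed, and 23 were higher and 10 lower with BTC (median 0.20). The interval lay within 1 log2 unit of 0 for 9 of them. The median by experiment was -0.03, 0.68, 0.00, 0.36 and 0.00, so that it was above 0.1 in experiments 2 and 4. CXCL1, a neutrophil chemokine, was at 26.0, 6.77, 1.03, 20.3 and 11.6 CPM in OLA+Veh and 34.2, 19.5, 3.56, 57.7 and 13.4 CPM in OLA+BTC, higher in 5 of 5 (0.92 ± 0.54 SE, unadjusted p 0.0979). CXCL8 was higher in 5 of 5 as well (0.65, unadjusted p 0.319). IL1B was at 75.1 CPM against 17.0 CPM in experiment 4 and at 4.26 against 22.9 CPM in experiment 5. Leukocyte markers were high in OLA+BTC 2, and their part in the cytokine values of experiment 2 was not tested.

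Of 26 interferon-induced genes, 15 were higher and 11 lower (median 0.08). IFI44 was higher in 5 of 5 (0.98, unadjusted p 0.018), from 0 to 8.31 CPM in OLA+Veh to 1.31 to 11.3 CPM in OLA+BTC. OAS1, a sensor of double-stranded RNA, was higher in 5 of 5 (0.83, unadjusted p 0.0455), at 1.77 to 6.97 against 5.24 to 8.96 CPM, and at 0.73 (unadjusted p 0.103) without OLA+BTC 2. NQO1 and KEAP1 of the NRF2 list were higher in 5 of 5 by 0.25 and 0.27, and 15 of its 21 genes were higher (median 0.16). PFKFB4, a regulator of glycolysis, was at 2.65 to 8.78 CPM in OLA+Veh and 3.85 to 13.1 CPM in OLA+BTC (0.73, unadjusted p 0.0394) and at 0.45 (unadjusted p 0.197) without OLA+BTC 2. PDGFRA, a platelet-derived growth factor receptor, was at 16.9, 1.47, 0, 3.39 and 3.23 CPM in OLA+Veh and 19.6, 7.11, 3.00, 7.22 and 2.43 CPM in OLA+BTC (0.90, unadjusted p 0.0155). BIK, a pro-apoptotic BH3 protein, was at or below 1.85 CPM in all 10 libraries (0.69, unadjusted p 0.0353, and 0.54 with unadjusted p 0.113 without OLA+BTC 2). None of these passed after adjustment (adjusted p above 0.99, limma). LST1, a leukocyte gene, had an unadjusted p of 0.0171 and a difference of 0.99, which was 0.47 (unadjusted p 0.166) without OLA+BTC 2.

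The genes with the smallest p-values were named by rule: 8 in each direction with a group mean reaching 5 CPM and the same sign in at least 4 of 5 experiments. In the higher direction they were RPP14, RPS23P2, WIPF1, DCUN1D5, HMCES, PEAR1, ATP5F1A and MRGPRF. RPP14, a subunit of ribonuclease P, was at 9.11, 4.71, 0.413, 0.997 and 5.81 CPM in OLA+Veh and 12.3, 11.7, 3.75, 3.38 and 10.7 CPM in OLA+BTC. Every BTC culture was above its pair while the groups overlapped (1.05 ± 0.30 SE, unadjusted p 0.00161). HMCES, which protects abasic sites in single-stranded DNA, was at 98.1, 88.7, 73.7, 71.2 and 116.1 CPM in OLA+Veh and 136, 129, 148, 119 and 134 CPM in OLA+BTC. It was the only gene of the 16 whose groups did not overlap, against 15 of all 15137 genes tested (0.0991%), a share that says nothing of the 16, which were chosen by their p-values in this contrast. Its difference was 0.59 ± 0.21 SE. ATP5F1A, the alpha subunit of mitochondrial ATP synthase, was at 93.7 to 199.9 CPM in OLA+Veh and 197 to 277 CPM in OLA+BTC, with the larger gaps in experiments 3 and 4 (0.71). DCUN1D5, which helps attach NEDD8 to cullins, was higher in 4 of 5 (0.94), and WIPF1, an actin regulator, in 4 of 5 (0.77). RPS23P2 is a ribosomal protein pseudogene whose reads can come from its parent gene or other copies. It was at 24.1 CPM in OLA+BTC 2 and at most 3.16 CPM in the other 9 libraries. Its OLA+BTC mean of 5.92 CPM met the naming rule only through OLA+BTC 2. The difference was 1.48 (unadjusted p 0.0022, limma), and 0.76 (unadjusted p 0.0202, limma) without that library.

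In the lower direction the rule gave MRPL2, MIAT, PPP2R2B, UBA6-DT, HOOK3, SLC38A4, TGFB2 and RNU4ATAC. MRPL2, a protein of the large mitochondrial ribosomal subunit, was at 18.2, 22.1, 37.3, 48.5 and 33.9 CPM in OLA+Veh and 15.3, 13.0, 19.3, 24.6 and 13.8 CPM in OLA+BTC. Each BTC culture was below its pair, and the groups overlapped (-0.81 ± 0.23 SE, unadjusted p 0.00162). MIAT, a long noncoding RNA, was at 16.9, 12.7, 3.51, 2.59 and 9.03 CPM in OLA+Veh and 11.8, 8.65, 1.31, 0 and 0.203 CPM in OLA+BTC (-1.37 ± 0.41 SE). SLC38A4, an amino acid transporter, was lower in 5 of 5 (-1.15), as were HOOK3, a dynein adaptor (-0.57), PPP2R2B, a regulatory subunit of protein phosphatase 2A (-0.996), and UBA6-DT (-0.96). RNU4ATAC, the small nuclear RNA of the minor spliceosome, was at 12.3, 17.4, 58.8, 17.0 and 3.23 CPM in OLA+Veh and 5.79, 21.3, 22.9, 2.93 and 0.608 CPM in OLA+BTC, lower in 4 of 5 (-1.12 ± 0.43 SE). Adjusted p-values of these 16 genes were all above 0.99 (limma), and 1.98% of all genes tested were at an unadjusted p under 0.05.

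VTRNA1-1 (ENSG00000199990.1) had the smallest p of all genes, and falls outside the naming rule because its mean stays under 5 CPM. It was picked out after its values were seen. Vault RNAs are short transcripts of RNA polymerase III that bind the vault particle. In the GENCODE v29 annotation (GRCh38), VTRNA1-1 lies at chr5:140711275-140711373 on the plus strand, and its paralogs VTRNA1-2 and VTRNA1-3 lie downstream at chr5:140718925-140719013 and chr5:140726158-140726246. The 3 sequences are shown because they share their first 29 bases and a block of 16 bases near the 3′ end, so that short reads may not tell them apart. Capitals mark the stretch between these shared blocks.
VTRNA1-1: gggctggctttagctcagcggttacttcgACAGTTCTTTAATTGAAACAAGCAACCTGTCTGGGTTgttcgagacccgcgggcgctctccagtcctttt
VTRNA1-2: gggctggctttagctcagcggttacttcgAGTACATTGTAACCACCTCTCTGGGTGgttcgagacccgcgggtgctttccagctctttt
VTRNA1-3: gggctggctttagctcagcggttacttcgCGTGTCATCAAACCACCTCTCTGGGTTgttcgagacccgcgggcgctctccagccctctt

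VTRNA1-1 had 8, 2, 20, 18 and 4 reads in OLA+Veh 1 to 5 and 0 reads in each of the 5 OLA+BTC libraries. Summed over the groups, that is 52 reads among 20086882 against 0 among 21917374. With 3 reads over the group as the floor, the pooled level of VTRNA1-1 was at least 18.9-fold lower in OLA+BTC. That bound covers counting error in OLA+BTC only and leaves out the spread between cultures, 2 to 20 reads in OLA+Veh. It does not bound the effect of BTC. The OLA+Veh 2 value alone lies under its own floor. On the log2(CPM + 1) scale the difference was -1.61 ± 0.35 SE (unadjusted p 6.31e-05, adjusted p 0.956, limma). DESeq2 on the reads gave an adjusted p of 0.014 and edgeR 0.216. The adjusted p in limma ran from 0.449 to 1 over the alternatives tried. Its level was 0.403 ± 0.637 CPM in Veh+Veh, 0.965 ± 0.708 in Veh+BTC, 1.38 ± 2.37 in DHA+Veh and 1.31 ± 0.876 in DHA+BTC (SD, n = 5), and OLA+Veh, at 2.35 ± 1.497, had the highest of the 6 group means. VTRNA1-3 was lower with BTC in 5 of 5 experiments (5.36, 2.36, 4.54, 4.99 and 1.61 against 1.01, 2.16, 3.37, 2.93 and 0.811 CPM, -0.65, unadjusted p 0.0823), and VTRNA1-2 differed by -0.01. Vault RNAs are not polyadenylated, and the library kit primes on poly(A), so how these reads arose is not known here.

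The response after oleic acid was set beside those after the other pretreatments. BTC without fatty acid gave 0 called genes (0%) in limma, with 1539 (10.2%) at an unadjusted p under 0.05. This number depends on the fit: it was 644 with library GC content as a covariate and 973 in a fit of the compared groups alone, against 352 and 662 after oleic acid. edgeR gave 0 and DESeq2 1, RN7SL1, with 1318 and 1606 at an unadjusted p under 0.05. BTC after DHA gave 0 called in all 3 tools, with 629 (4.16%) at an unadjusted p under 0.05 in limma, 430 in edgeR and 523 in DESeq2. The oleic acid by BTC interaction tests whether the response after oleic acid differs from that without fatty acid. It gave 0 called genes in limma, with 1279 (8.45%) at an unadjusted p under 0.05, and in edgeR (1269), and 1 in DESeq2 (1534), VTRNA1-1. With the GC covariate, 646 genes had an interaction at an unadjusted p under 0.05 in limma. The response after oleic acid minus that after DHA gave 0 called in all 3 tools, with 572 (3.78%), 552 and 691 at an unadjusted p under 0.05.

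For the named genes the 3 responses often had different signs. HMCES was higher with BTC after oleic acid and lower without fatty acid (-0.56, unadjusted p 0.0108), with an interaction of 1.149 (unadjusted p 0.000469, adjusted p 0.584, limma). RNU4ATAC was lower after oleic acid and higher without fatty acid (1.61, unadjusted p 0.00067), with the smallest interaction p of all genes (-2.73, unadjusted p 8.25e-05, adjusted p 0.584, limma). The SRP RNA RN7SL1 differed by -0.53 after oleic acid and 1.82 without fatty acid. As with the vault RNAs, how reads of RNU4ATAC and RN7SL1 arose with a kit that primes on poly(A) is not known here. DUSP6 differed by 0.15 after oleic acid, -1.06 without fatty acid (unadjusted p 0.0171) and -0.35 after DHA, and SCD by 0.05, -0.74 (unadjusted p 0.0127) and -0.04. No interaction of the genes in this paragraph passed in limma, edgeR or DESeq2, so none of these responses was shown to differ between pretreatments. DUSP6, SCD and the collagens without fatty acid include Veh+BTC 1 and Veh+BTC 5, which had the lowest scores of all libraries on the shared component.

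**Figure D5:**
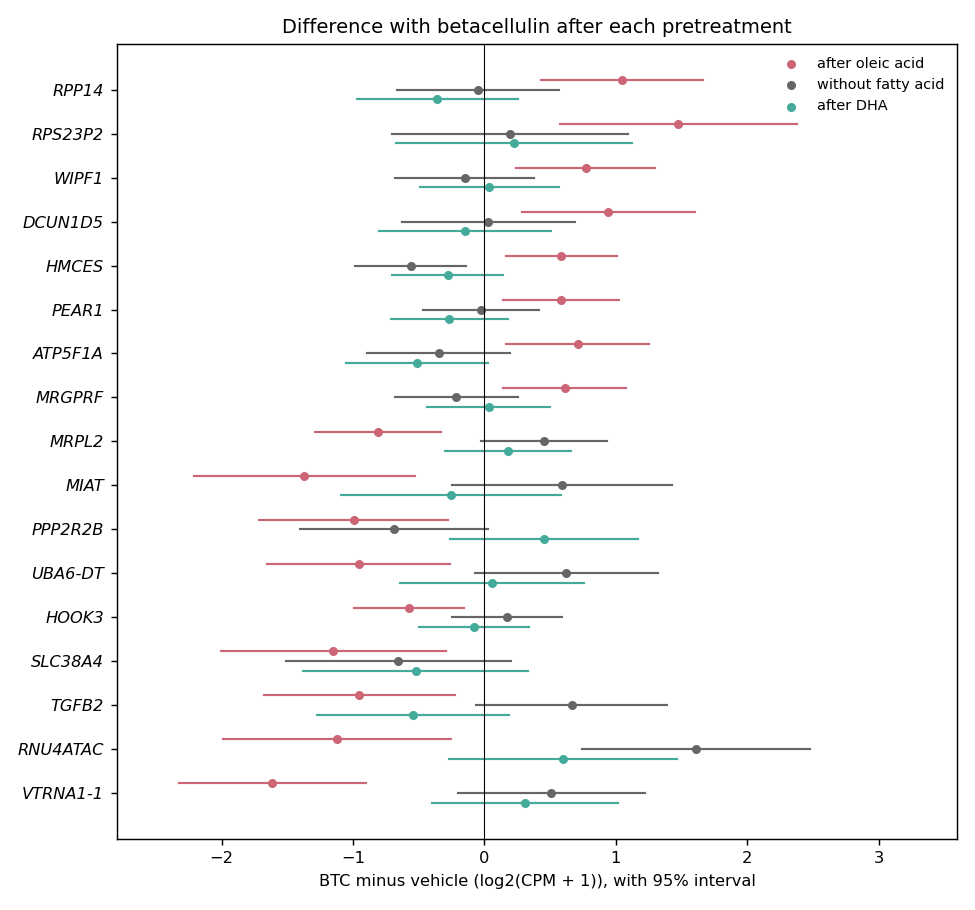
Difference between BTC and vehicle on the log2(CPM + 1) scale, with its 95% interval from limma, after oleic acid (red), without fatty acid (grey) and after DHA (green) for the 16 named genes and VTRNA1-1. The oleic acid intervals exclude 0 because the genes were chosen by their p-values in that comparison, and no adjusted p from limma passed in any pretreatment (DESeq2 called VTRNA1-1 after oleic acid).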

How the data were processed

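RNA of LX2 cultures was sequenced from the 3′ ends of transcripts (QuantSeq, per the labels' protocols), and the submitters' processing notes name STAR 2.5.3a and HTSeq 0.6.0. The build and annotation the authors used are not given in the sources used here. The authors deposited 1 table of CPM values for 61597 genes, each column scaled to 1000000. Every value was a whole multiple of 1 read (within 0.01 read) in all 30 libraries, 100% of values, so whole reads were recovered for edgeR 4.0.16 and DESeq2 1.42.0. Symbols matched 61444 identifiers (99.8%).

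The main test was limma 3.58.1 (R 4.3.3) with trend on log2(CPM + 1), for the 15137 genes that reached 1 CPM in 5 or more libraries. All 30 libraries entered 1 fit with group and experiment as terms. Tests were two-sided with Benjamini-Hochberg adjustment, called at 0.05. The scale understates differences of low genes. The experiment comes from the labels' cohort. Deviations from group means of same-numbered oleic acid libraries correlated at 0.643, 0.603, 0.619, 0.531 and 0.138 in experiments 1 to 5, against a median of -0.14 and a highest value of 0.475 between different experiments, which is above that of experiment 5.

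Genes named were the 8 with the smallest p in each direction (at least 5 CPM in a group, same sign in 4 of 5 experiments), up to 4 members with the smallest p of each list, and fixed ErbB, ERK, matrix and lipid genes. Other genes were picked after their values were seen: those of the shared component, of OLA+BTC 2 and the vault RNAs, and list members named for having the same sign in 5 of 5 experiments or as familiar members of their list. The 33 lists held 681 genes, of which 4 entries were not found. Members and lists were chosen with earlier results of these data known. Alternatives covered pseudocount, filter, scaling, tool, block and leaving out libraries or experiments. Vault RNA sequences and the GC content of transcript ends come from GENCODE v29. limma and edgeR were checked on simulated counts drawn gene by gene with a fixed dispersion. Those counts held no shared component and no library like OLA+BTC 2, so the check does not show that the p-values hold for these data.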

Additional observations from a re-analysis of the deposited data

Results flagged for a closer look

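Dixon's criterion was applied to 114 sets of 5 oleic acid libraries (47 genes, 5 library measures and 5 marker sums, in each group). In 16 sets (14.0%), the gap of 1 library from the next, over the range, passed the critical value of 0.71. Of these, 6 belong to OLA+BTC 2: RPS23P2 at 24.1 CPM (others 0.608 to 3.16), PPP2R2B at 7.72 CPM (others 0.405 to 1.87), SLC38A4 at 10.2 CPM (others 0.226 to 2.52), PLIN2 at 475 CPM (others 98.5 to 164), FOS at 6.49 CPM (others 1.35 to 2.77) and LST1 at 7.11 CPM (others 0.203 to 1.01). A seventh is the sum of the leukocyte markers in OLA+BTC 2, at 141 CPM against 26.2 to 48.8 CPM in the other BTC libraries. PPP2R2B was also high in OLA+Veh 2, the pair of that library, at 16.2 CPM (others 1.197 to 4.13).

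Experiment 1 stood apart in both groups for IFI44 (8.31 CPM in OLA+Veh 1 and 11.3 CPM in OLA+BTC 1, others at most 1.18 and 4.02) and for PDGFRA (16.9 CPM and 19.6 CPM, others at most 3.39 and 7.22). SCD was at 911 CPM in OLA+Veh 1 against 567 to 661 CPM, and LST1 at 0.268 CPM there against 0 in the other vehicle libraries. That LST1 value lies under the floor of 3 reads in OLA+Veh 1, 0.804 CPM. RNU4ATAC was at 58.8 CPM in OLA+Veh 3 against 3.23 to 17.4 CPM, and ERBB2 at 46.0 CPM in OLA+BTC 5 against 35.5 to 36.7 CPM. No interaction with the pretreatment passed an adjusted p of 0.05 in limma.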

How the results depend on the processing

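The count of 0 called genes after oleic acid was found in 26 of 27 alternatives, leaving out each library or each experiment included (0 to 0). DESeq2 gave 1 called gene, 0 higher and 1 lower (VTRNA1-1). It also gave 1 for BTC without fatty acid (RN7SL1) and 1 for the oleic acid interaction (VTRNA1-1), where the main count was 0. BTC after DHA and the comparison with DHA stayed at 0 in every alternative. With no replicate block, and so no pairing by experiment, the count of called genes was 0 in all 5 comparisons, and genes at an unadjusted p under 0.05 after oleic acid numbered 102 in place of 299. That number was 662 with the oleic acid libraries alone, 930 with no filter, 121 at a mean of 5 CPM or more, 590 without experiment 5 and 218 to 388 without 1 of the others, and 216 with both OLA+BTC 2 and OLA+BTC 5 left out (chosen after seeing the data, as were the GC covariate and leaving out libraries of the other pretreatments). Without fatty acid it ran from 606 to 2343 when experiments were left out. The causes were not tested. The 16 named genes kept their sign in all of their 429 refits. They were chosen by p and sign in these same libraries, so this outcome was nearly fixed in advance. The 21 ErbB, ERK, cycle, matrix and lipid genes beside TGFB2 changed sign in 70 of 563, none with a call. Depth limits low genes: 3 reads were 0.562 to 0.968 CPM.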
